A study of Mus musculus with 4 samples.

Results

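Mitotic kinases, kinesins, kinetochore proteins and their partners were followed in mouse embryonic stem (ES) cells with and without Suz12, as a set of 44 genes. The set was drawn up by function, but with earlier results of these data known. Each gene was read from the brightest of the probe sets whose only gene symbol was its own. All 44 were found among the 18193 genes that the Affymetrix arrays could name, and all 44 were among the 12735 bright enough to test.

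The study measured total RNA of ES cells, the pluripotent cells of the early embryo, on 2 arrays for the genotype WT and 2 for Suz12KO. Suz12 belongs to the core of Polycomb repressive complex 2, an enzyme complex that methylates histone H3 on lysine 27. For each genotype, RNA of 3 clones was prepared separately and then mixed in equal amounts, so an array reports a pool and not a clone. Whether the 2 arrays of a genotype hold separately prepared RNA is not stated, and every p-value therefore measures only the spread between arrays, which may be technical. No treatment, passage or growth condition was given in the labels used here.

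Mitotic genes are transcribed in waves, and many reach their highest messenger level in G2 and mitosis. Aurora and Polo kinases drive entry and spindle assembly, kinesins move along and shape the microtubules, and kinetochores tie the microtubules to centromeres. The spindle checkpoint holds the anaphase-promoting complex (APC/C) inactive until all chromosomes are attached, after which securin is destroyed and separase opens the cohesin rings. Many promoters of such genes carry a cell cycle genes homology region (CHR), bound by the DREAM and MuvB complexes, together with CCAAT boxes, bound by NF-Y. ES cells divide fast, with short gap phases.

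The promoters are shown first because many of the 44 genes carry 1 or both of these short motifs near the start of transcription. The RefSeq promoter table (GRCm38.p6, 250 bases before to 50 after each start) held a window for 37 of the 44 genes. Cdc25c, Tpx2, Kif20a, Spc24, Aurkb, Incenp and Smc4 had no window in it. The CHR letters TTTGAA, searched on both strands, were in a window of 24 of the 37 genes (64.9%, exact 95% interval 47.5 to 79.8), against 20.2% of the 27025 genes in the table. CCAAT, searched on both strands, was in a window of 27 of the 37 (73.0%, interval 55.9 to 86.2), against 41.1% of the table. Each motif was searched on its own, and 0 matches of the 2 overlapped in the windows of the 37 genes. Both stood in the same window of 21 of the 37 genes (56.8%), against 7.97% of the table. Within 50 bases of the start, TTTGAA was in 22 of the 37 (59.5%), against 5.72% of the table. With the looser letters TTNGAA the share was 78.4% against 43.8% of the table, and with CCAAT sought only before the start it was 67.6% against 37.5%. Among the 10244 genes that were both in the table and tested on the arrays, 14.4% had TTTGAA and 42.4% had CCAAT. The 100 other mitotic genes with a window, listed further down, lay between: 39.0% had TTTGAA, 57.0% CCAAT, 28.0% both, and 30% had TTTGAA within 50 bases of the start. A match is a run of letters only, and no binding was measured here.

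The 10 stretches printed are the last 100 bases before the start, 5′ to 3′ on the strand of the gene, with each match of either motif, on either strand, in capitals (TTCAAA is the CHR on the other strand, and a CCAAT box there is written as ATTGG). The first 9 are the genes in which both motifs lay wholly inside that stretch, and the last is Pttg1, the 1 gene that passed the test between genotypes.
Bub3: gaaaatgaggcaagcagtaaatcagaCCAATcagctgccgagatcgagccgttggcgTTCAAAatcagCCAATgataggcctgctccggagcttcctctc
Cdc20: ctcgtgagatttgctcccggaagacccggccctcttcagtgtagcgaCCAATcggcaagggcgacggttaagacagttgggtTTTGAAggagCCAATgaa
Ube2c: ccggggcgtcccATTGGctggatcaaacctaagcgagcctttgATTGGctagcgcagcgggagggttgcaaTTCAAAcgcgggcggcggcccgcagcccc
Espl1: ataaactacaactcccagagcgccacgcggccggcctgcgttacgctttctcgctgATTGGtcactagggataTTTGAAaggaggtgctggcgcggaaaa
Cenpn: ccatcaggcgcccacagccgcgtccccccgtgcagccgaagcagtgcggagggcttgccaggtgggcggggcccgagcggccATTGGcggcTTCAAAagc
Kif11: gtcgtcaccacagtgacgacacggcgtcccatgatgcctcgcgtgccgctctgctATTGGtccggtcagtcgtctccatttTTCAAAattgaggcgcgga
Kif22: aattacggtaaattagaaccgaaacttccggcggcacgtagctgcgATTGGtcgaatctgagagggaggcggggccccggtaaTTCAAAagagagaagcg
Prc1: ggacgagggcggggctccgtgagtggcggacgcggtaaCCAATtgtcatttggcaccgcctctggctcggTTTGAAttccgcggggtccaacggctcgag
Top2a: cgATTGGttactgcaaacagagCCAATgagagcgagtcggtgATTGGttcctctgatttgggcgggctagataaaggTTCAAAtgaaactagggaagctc
Pttg1: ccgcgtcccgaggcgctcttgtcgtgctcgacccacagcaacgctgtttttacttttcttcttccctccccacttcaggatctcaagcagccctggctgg

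The stretches lie, in RefSeq's GRCm38.p6 coordinates, at Bub3 chr7:131560270-131560369 (plus strand), Cdc20 chr4:118437344-118437443 (minus strand), Ube2c chr2:164769829-164769928 (plus strand), Espl1 chr15:102296193-102296292 (plus strand), Cenpn chr8:116921640-116921739 (plus strand), Kif11 chr19:37376282-37376381 (plus strand), Kif22 chr7:127042421-127042520 (minus strand), Prc1 chr7:80294376-80294475 (plus strand), Top2a chr11:99024190-99024289 (minus strand) and Pttg1 chr11:43425982-43426081 (minus strand). In the 9 with both motifs, the start of the CHR lay 9 to 37 bases after the start of the nearest CCAAT box before it. The spacing was 31 bases in Bub3, 32 in Prc1, and 35 in both Cdc20 and Top2a. Cenpn had the closest pair, at 9 bases, and Kif22 the widest, at 37. Top2a carried 3 CCAAT boxes in its stretch, while the Pttg1 stretch held neither motif.

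**Figure D1:**
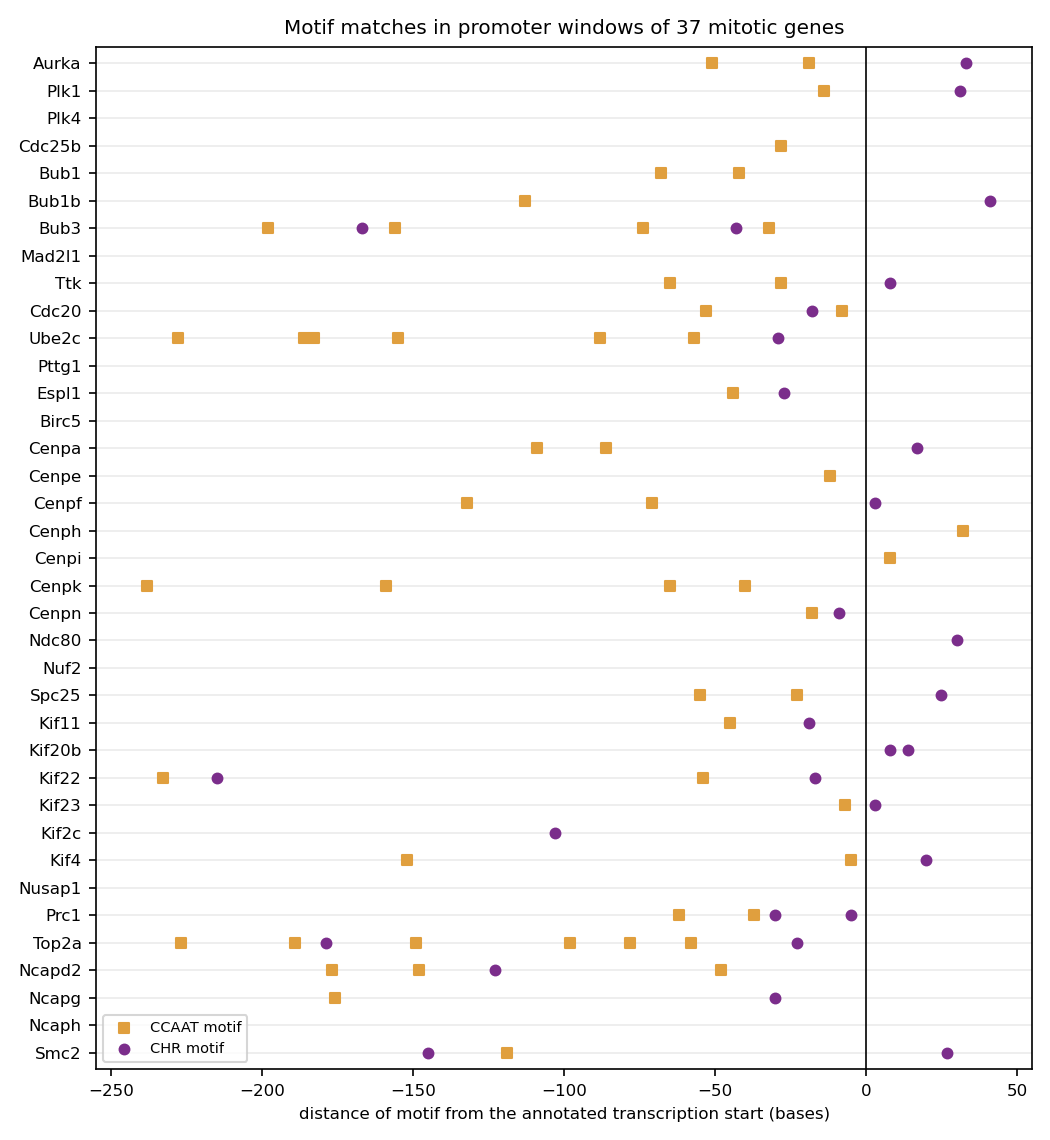
Position of each TTTGAA (CHR) and CCAAT match, in bases from the annotated start of transcription, in the promoter windows of the 37 genes that have one, 1 line per gene. Of the 28 distinct CHR sites, 23 begin within 50 bases of a start, while Prc1 and Bub3 show 1 site at a pair of positions because they have more than 1 annotated start, and CCAAT matches spread further upstream.

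Across the 44 genes, the message level differed little between WT and Suz12KO. By limma's moderated test with Benjamini-Hochberg adjustment over all 12735 genes, 1 gene (Pttg1) was higher in Suz12KO and 0 were lower, while 4.48% of all genes tested were called higher and 5.50% lower. At an unadjusted p under 0.05, 13 of the 44 were higher and 0 lower, against 11.9% and 11.4% of all genes tested. The median log2 fold change of the 44, Suz12KO over WT, was 0.15, against 0.035 over all genes tested. After each array was centred on its own median, the 44 had a median of -0.015 and all genes tested a median of -0.13, so the distance between them was 0.12 on both scales. All fold changes are on the log2(signal + 16) scale, which understates changes of dim genes.

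The deposited signals had been scaled to 1 trimmed mean, yet array medians were 175 and 171 for WT against 202 and 191 for Suz12KO. Centring takes this gap away and lowers every log2 fold change by 0.17. Each gene is therefore given on both scales, with the centred value second. Before centring 36 of the 44 values lay above 0 (53.5% of all genes tested) and 8 below. After it, 20 lay above 0 (37.5% of all genes tested) and 24 below. Under centring 1 of the 44 genes was called lower (Bub3) and 0 higher, where 2.31% of all genes were called higher and 9.76% lower. At an unadjusted limma p under 0.05, 1 of the 44 was higher and 3 lower, against 734 higher and 2526 lower of the 12735 genes tested. In bulk RNA, fewer cells of a type and less RNA per cell cannot be told apart.

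Other settings changed these counts. Quantile normalization called 4 of the 44 higher (5.03% of all genes) and 0 lower (4.91%), and the filter at the 50th percentile called 3 higher (7.39%) and 0 lower (8.45%). The mean of probe sets called 0 of the 44 higher, where 305 of all 12735 genes were. Without probe sets of s, x or a suffix 0 were called higher, where 407 of 11614 genes were. Without limma's mean-variance trend 0 were, as over all genes tested. A fit without 1 array leaves a single array in that genotype, takes the spread from the other genotype alone and assumes that both vary alike, so its calls are no sign of stability. Leaving out WT replicate 2 called 3 higher (3.20%) and 0 lower (3.07%), namely Cdc20, Pttg1 and Birc5. Leaving out Suz12KO replicate 2 called 2 higher (3.58%) and 0 lower (5.81%), namely Ube2c and Pttg1.

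The narrowness of the differences was measured too. The 95% interval of the log2 fold change lay within 2-fold in either direction for 43 of the 44 genes, the exception being Cenpi, against 55.5% of all genes tested. It lay within 1.5-fold for 37 of them, a count for which no share over all genes was computed. None of the 44 had a log2 fold change of 1 or more in size, where 8.18% of all genes tested did. The median SE was 0.11 for the 44 and 0.24 for all genes tested. In the limma fit the spread was modelled on the signal, so dim genes get wider intervals. The 44 were bright, with a median log2(signal + 16) of 10.8 to 11.0 on the 4 arrays. The part of signal level in this narrowness was not tested. The filter on low signal was passed by every one of the 44, and 43 lay above the highest unused bacterial spike (195 in any array) in all 4 arrays.

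**Figure D2:**
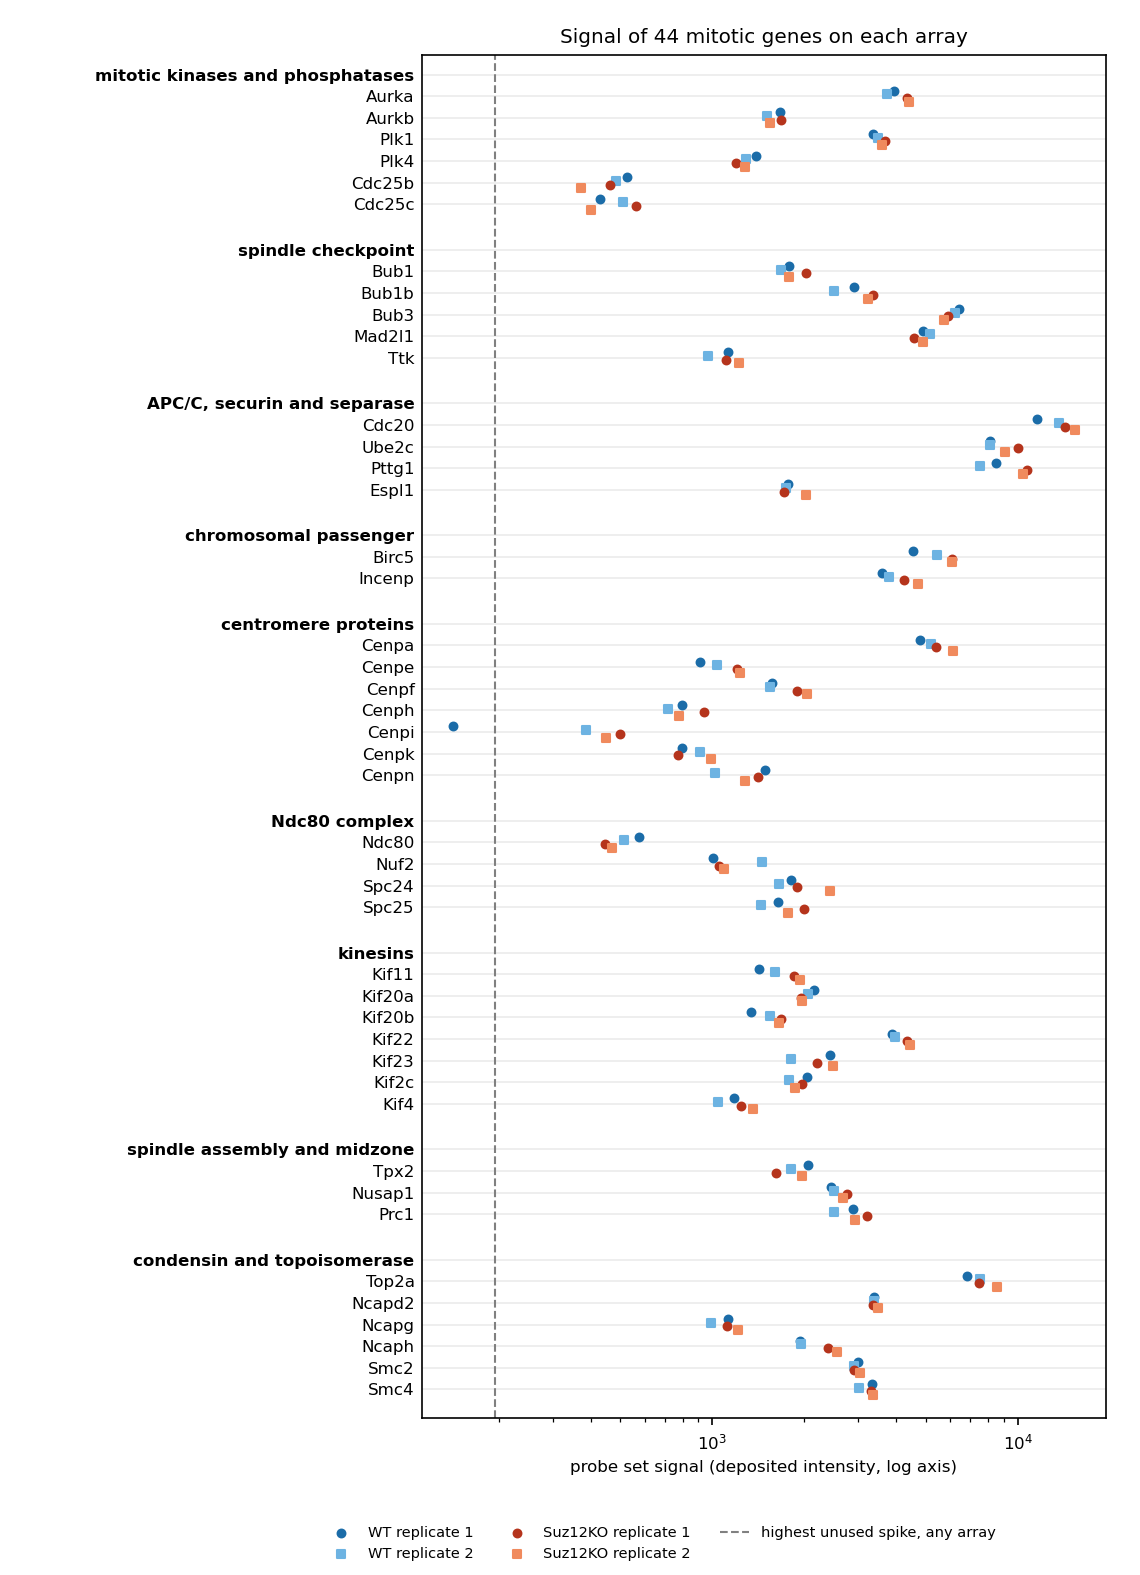
Deposited signal (log axis) of the brightest probe set of each of the 44 genes on each of the 4 arrays, grouped by role, with the highest unused spike as a dashed line. The points of a gene lie close together for most genes, and Cenpi has 1 WT array at 142, left of the line.

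The kinases and phosphatases that start mitosis had the lowest median of any role, a log2 fold change of 0.018 (centred -0.15) over 6 genes, of which none passed the test. Aurka, the kinase of centrosome maturation and spindle assembly, read 3947 and 3730 in WT against 4327 and 4417 in Suz12KO. Its 2 Suz12KO arrays lay above both WT arrays, with a log2 fold change of 0.19 (SE 0.077, adjusted p = 0.181, centred 0.020). Plk1, the Polo kinase that acts from entry to cytokinesis, read 3358 and 3481 in WT against 3674 and 3590 in Suz12KO. The groups did not overlap, but the log2 fold change was 0.087 (SE 0.080, adjusted p = 0.572) and turned to -0.081 after centring. Aurkb, the catalytic subunit of the chromosomal passenger complex, overlapped between genotypes, at 1671 and 1511 in WT against 1678 and 1543 in Suz12KO. Its 95% interval, -0.25 to 0.29, lies within 1.5-fold in either direction.

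Plk4, the kinase that licenses centriole duplication, read 1391 and 1293 in WT against 1199 and 1284 in Suz12KO (log2 fold change -0.11, SE 0.13, adjusted p = 0.671, centred -0.28). Cdc25b and Cdc25c are the phosphatases that remove the inhibitory phosphates from Cdk1. Cdc25b read 524 and 485 in WT against 461 and 371 in Suz12KO, with a log2 fold change of -0.28 (SE 0.25, adjusted p = 0.570, centred -0.44). Cdc25c read 430 and 508 in WT against 561 and 400 in Suz12KO, and its groups overlapped. By their brightest sets, Plk4 and Cdc25b were the 2 of these 6 genes whose Suz12KO arrays both lay below the WT arrays, and neither passed the test. Further sets of these genes were mixed. The second Plk4 set was lower on both Suz12KO arrays (-0.20) and the third higher (523 and 573 against 622 and 628, 0.19). The second Aurkb set was lower on both (734 and 843 against 572 and 732, -0.28), and the second Cdc25c set higher (320 and 463 against 583 and 527, 0.51).

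The 5 spindle checkpoint genes split by direction, and none passed the test before centring. Bub1b, which encodes the checkpoint protein BubR1, read 2915 and 2510 in WT against 3368 and 3235 in Suz12KO (log2 fold change 0.29, SE 0.10, adjusted p = 0.112, centred 0.12). Both Suz12KO arrays were above both WT arrays. Bub3, the partner that carries Bub1 and BubR1 to kinetochores, read 6424 and 6253 in WT against 5909 and 5748 in Suz12KO. Both Suz12KO arrays were lower, by a log2 fold change of -0.12 (SE 0.067, adjusted p = 0.320), and the centred value of -0.29 passed the test (adjusted p = 0.0435). Its other bright set overlapped, at 1272 and 995 in WT against 1097 and 1139 in Suz12KO, so this call rests on 1 probe set.

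Mad2l1, the inhibitor that closes on Cdc20, read 4877 and 5155 in WT against 4569 and 4877 in Suz12KO (log2 fold change -0.087, SE 0.076, adjusted p = 0.546, centred -0.25). Its arrays were separated by less than 1 signal unit. Bub1, the kinetochore kinase, was separated as narrowly in the other direction, at 1776 and 1676 in WT against 2031 and 1776 in Suz12KO (log2 fold change 0.14, centred -0.030). Ttk, the kinase also called Mps1, overlapped between genotypes, at 1122 and 966 in WT against 1108 and 1219 in Suz12KO.

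The APC/C activators, securin and separase all had values above 0 before centring, with a median log2 fold change of 0.23 (centred 0.066) over 4 genes. Pttg1, which encodes securin, the inhibitor that holds separase until anaphase, rose. It read 8471 and 7514 in WT against 10724 and 10382 in Suz12KO, or 7992 ± 677 against 10553 ± 241 (SD, n = 2 arrays each). The groups did not overlap, and the log2 fold change was 0.40 (SE 0.072, 95% interval 0.24 to 0.56, limma adjusted p = 0.00706). After centring it was 0.24 with an adjusted p of 0.0953, so the call ended while the direction stayed. With 1 array left out, limma's adjusted p was 0.00432 to 0.0498, and leaving out its mean-variance trend ended the call (adjusted p = 0.271).

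Other probe sets of Pttg1 gave less. One read 2086 and 2235 in WT against 2425 and 2209 in Suz12KO, with overlapping groups and a log2 fold change of 0.10. Another, close to background, read 220 and 206 in WT against 279 and 337 in Suz12KO. The mean over the Pttg1 probe sets gave 0.33 (adjusted p = 0.107), and with probe sets of shared or family suffix left out it was 0.50 (adjusted p = 0.513).

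Cdc20, the APC/C activator that the checkpoint restrains, read 11589 and 13646 in WT against 14294 and 15359 in Suz12KO (log2 fold change 0.24, SE 0.080, adjusted p = 0.104, centred 0.069). Its other probe sets lay the same way, at 10139 and 9709 against 11406 and 11622 (0.21) and at 1263 and 1332 against 1524 and 1641 (0.28). Ube2c, the ubiquitin-conjugating enzyme that starts chains for the APC/C, read 8112 and 8105 in WT against 9997 and 9060 in Suz12KO (log2 fold change 0.23, SE 0.067, adjusted p = 0.0653, centred 0.063). For both genes the Suz12KO arrays were higher, but neither passed the test. Espl1, which encodes separase, overlapped at 1765 and 1742 in WT against 1721 and 2024 in Suz12KO, with a log2 fold change of 0.089 and -0.078 after centring.

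The 2 partners of Aurora B in the chromosomal passenger complex were higher on both Suz12KO arrays, and neither passed the test. Birc5, which encodes survivin, read 4542 and 5451 in WT against 6087 and 6070 in Suz12KO (log2 fold change 0.29, SE 0.091, adjusted p = 0.0848, centred 0.12). Incenp, the scaffold of the complex, read 3595 and 3778 in WT against 4247 and 4714 in Suz12KO (log2 fold change 0.28, SE 0.084, adjusted p = 0.0732, centred 0.11). Further Incenp probe sets read 1429 and 1860 against 2322 and 1993 (0.40) and 827 and 857 against 1213 and 1095 (0.45). The difference between these 2 genes and Aurkb, which is in the same complex, was not tested.

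The 7 centromere and kinetochore assembly genes had a median log2 fold change of 0.21 (centred 0.042), with 0 called. Cenpa, the histone H3 variant that marks centromeres, read 4777 and 5185 in WT against 5404 and 6134 in Suz12KO (log2 fold change 0.21, SE 0.085, adjusted p = 0.174, centred 0.042). Cenpf, a large kinetochore protein of G2 and mitosis, read 1565 and 1545 in WT against 1897 and 2047 in Suz12KO (0.34, SE 0.11, adjusted p = 0.0919, centred 0.17). Cenpe, the kinetochore kinesin of chromosome congression, read 911 and 1040 in WT against 1203 and 1228 in Suz12KO (0.32, SE 0.14, adjusted p = 0.230, centred 0.15). These genes were higher on both Suz12KO arrays. Cenpe's second probe set lay the other way, at 487 and 595 in WT against 395 and 249 in Suz12KO, a log2 fold change of -0.75.

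Cenpi had the highest value of the 44 genes and also the poorest precision. This subunit of the constitutive centromere network read 142 and 385 in WT against 499 and 448 in Suz12KO, a log2 fold change of 0.96 (SE 0.44, 95% interval -0.034 to 1.95, adjusted p = 0.232, centred 0.79). Without WT replicate 1, the array below the highest spike, the value was 0.28. By their brightest sets, Cenph, Cenpk and Cenpn, other subunits of that network, overlapped between genotypes. Cenph read 794 and 716 in WT against 937 and 778 in Suz12KO, with a log2 fold change of 0.18 and 0.0078 after centring. For Cenpk the log2 fold change was 0.045 and for Cenpn 0.12, and both turned below 0 after centring, to -0.12 and -0.045. The second Cenpn set was higher on both Suz12KO arrays, at 958 and 1012 in WT against 1236 and 1161 in Suz12KO (0.28). The second Cenpk set, dim in WT, was higher too, at 138 and 184 against 296 and 322 (0.89).

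The Ndc80 complex, which binds the microtubule end, had 2 genes with values above 0 and 2 below, and 0 of the 4 passed the test. Spc24 read 1810 and 1651 in WT against 1890 and 2431 in Suz12KO (log2 fold change 0.31, SE 0.14, adjusted p = 0.213, centred 0.14). Spc25 read 1637 and 1440 in WT against 1995 and 1769 in Suz12KO (0.29, SE 0.12, adjusted p = 0.197, centred 0.12). These encode the subunits that face the centromere, and both were higher on both Suz12KO arrays. Ndc80, also called Hec1, read 577 and 512 in WT against 446 and 468 in Suz12KO (-0.24, SE 0.23, adjusted p = 0.587, centred -0.41). Nuf2, its partner at the microtubule, overlapped at 1007 and 1453 in WT against 1049 and 1095 in Suz12KO (-0.17, adjusted p = 0.631, centred -0.34). The difference between the pairs was not tested.

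The 7 kinesins had a median log2 fold change of 0.17 (centred 0.0014), with 0 called. Kif11, the motor Eg5 that pushes spindle poles apart, read 1424 and 1603 in WT against 1846 and 1939 in Suz12KO (0.32, SE 0.12, adjusted p = 0.129, centred 0.15). Its second probe set lay the other way, at 1676 and 1862 in WT against 1493 and 1500 in Suz12KO (-0.24). The third overlapped between genotypes, at 953 and 1088 in WT against 1073 and 1143 in Suz12KO (0.12), so 2 of the Kif11 sets had values above 0 and 1 below. Kif22, a chromosome-arm kinesin, read 3868 and 3957 in WT against 4351 and 4451 in Suz12KO (0.17, SE 0.075, adjusted p = 0.215, centred 0.0014).

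Kif20a, a motor of cytokinesis, was the 1 kinesin lower on both Suz12KO arrays, at 2148 and 2052 in WT against 1950 and 1966 in Suz12KO (-0.10, SE 0.10, adjusted p = 0.610, centred -0.27). Kif2c, the microtubule depolymerase MCAK, was nearest to 0 of all 44 genes, at 2037 and 1785 in WT against 1964 and 1863 in Suz12KO. Its log2 fold change was 0.0049 (SE 0.11, adjusted p = 0.988) and -0.16 after centring. Kif23, a midzone motor, overlapped as well by its brightest set, with 0.15 and -0.017 after centring. The second Kif23 set was higher on both Suz12KO arrays, at 390 and 376 in WT against 448 and 537 in Suz12KO (0.35). Of the further Kif2c sets, the second overlapped (-0.13) and the third was higher on both Suz12KO arrays (0.19). Kif4, the chromokinesin, and Kif20b had values of 0.23 and 0.20 (centred 0.058 and 0.035), with the Suz12KO arrays higher and adjusted p-values of 0.374 and 0.367.

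The microtubule organisers showed no call either. Tpx2, the activator of Aurora A, overlapped at 2057 and 1809 in WT against 1621 and 1966 in Suz12KO (log2 fold change -0.11, SE 0.13, adjusted p = 0.670, centred -0.28). Nusap1, a spindle microtubule bundler, read 2451 and 2509 in WT against 2753 and 2683 in Suz12KO, with 0.13 and -0.037 after centring. Prc1, the crosslinker of the anaphase midzone, read 2884 and 2503 in WT against 3211 and 2936 in Suz12KO (0.19, adjusted p = 0.302, centred 0.024). For these sets of Nusap1 and Prc1 the genotypes did not overlap, but the second Prc1 set lay the other way, at 1458 and 1320 in WT against 1250 and 1298 in Suz12KO (-0.12).

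Among the 6 condensin and topoisomerase genes, which compact and untangle chromosomes, 5 overlapped between genotypes by their brightest sets and 0 passed the test. The exception was Ncaph, the kleisin of condensin I. It read 1944 and 1946 in WT against 2399 and 2559 in Suz12KO (log2 fold change 0.35, SE 0.10, 95% interval 0.12 to 0.57, adjusted p = 0.0589, centred 0.18). Ncapd2 and Ncapg encode condensin I subunits of the same ring. Ncapd2 read 3382 and 3392 in WT against 3348 and 3499 in Suz12KO, with 0.015 and -0.15 after centring. Ncapg read 1127 and 988 in WT against 1114 and 1211 in Suz12KO, with 0.14 and -0.031 after centring, while its second probe set read 843 and 908 against 1152 and 1420 (0.54).

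Smc2 and Smc4 are the ATPase arms shared by both condensins. Smc2 read 2995 and 2903 in WT against 2907 and 3056 in Suz12KO, and its log2 fold change of 0.015 became -0.15 after centring. Smc4 read 3335 and 3024 in WT against 3305 and 3348 in Suz12KO, with 0.067 and -0.10 after centring. Top2a, the topoisomerase of mitotic chromosomes, read 6806 and 7543 in WT against 7476 and 8520 in Suz12KO, with 0.16 and -0.012 after centring. By these sets all 3 overlapped between genotypes. The third Smc2 set was lower on both Suz12KO arrays, at 450 and 622 in WT against 429 and 272 in Suz12KO (-0.61). The third Smc4 set was lower too, at 1043 and 1133 against 1016 and 864 (-0.21). The second Top2a set was higher, at 271 and 378 against 380 and 567 (0.51). Other Smc2 and Smc4 sets above the highest unused spike overlapped.

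**Figure D3:**
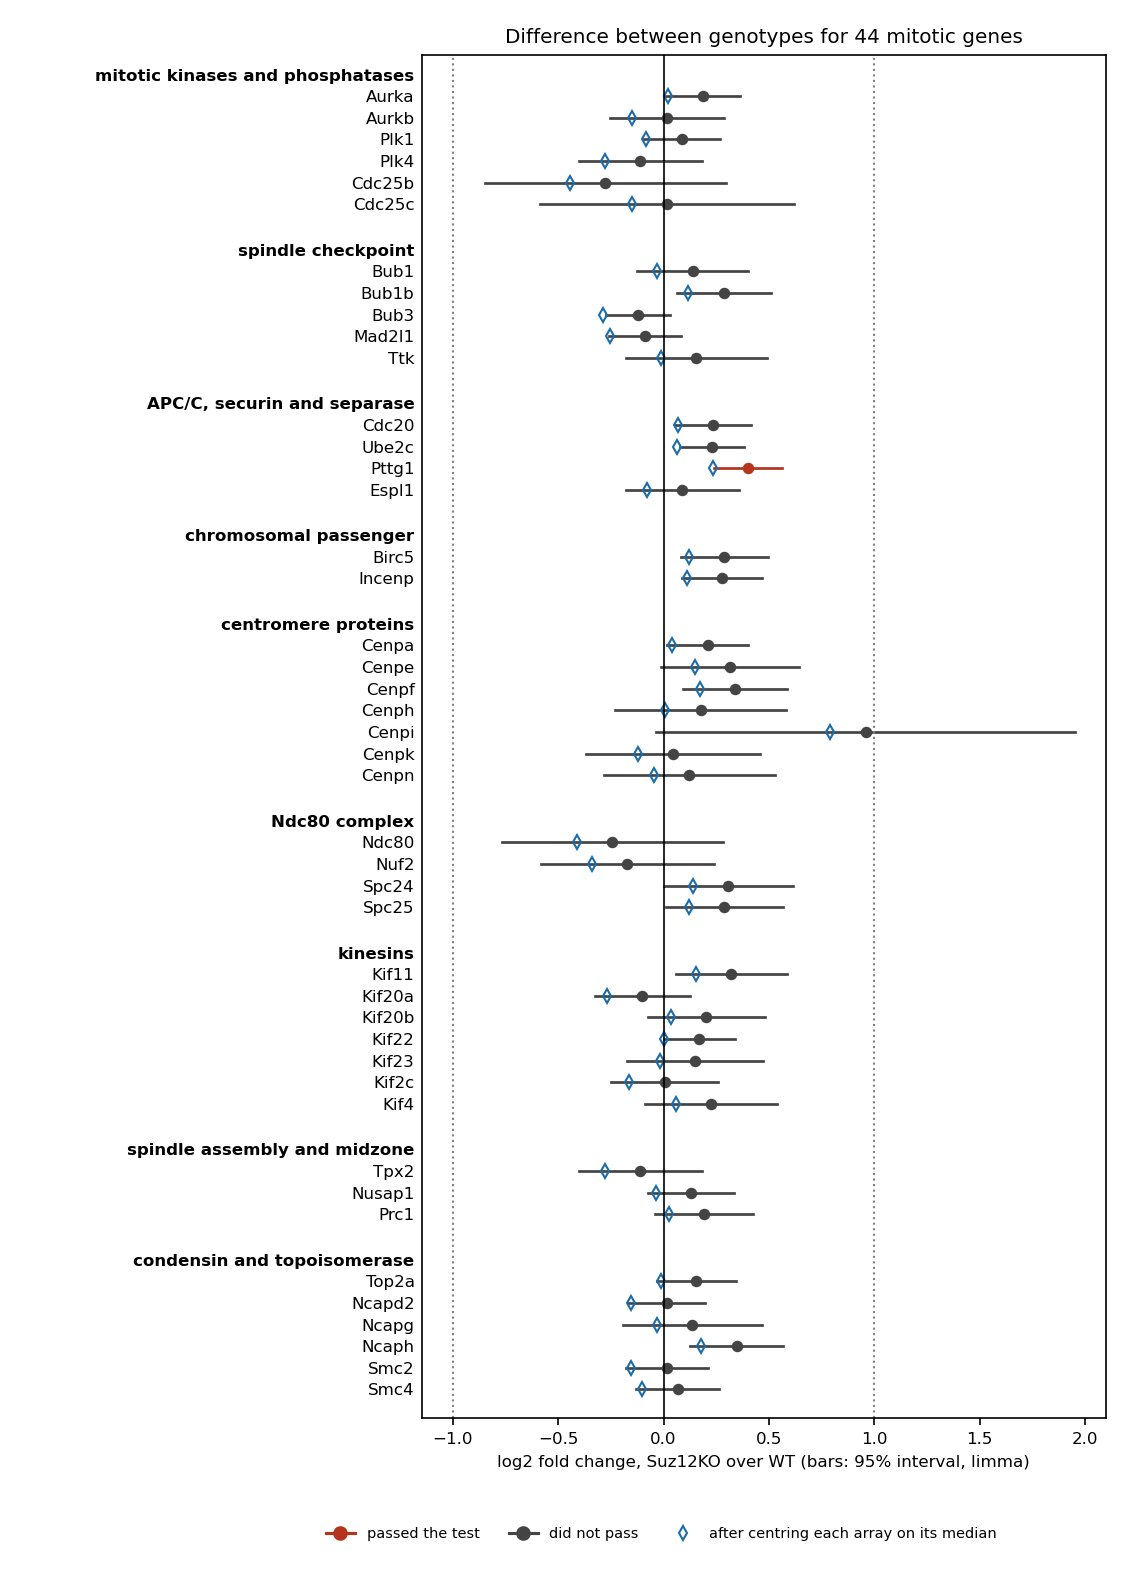
Log2 fold change, Suz12KO over WT, of each of the 44 genes with its 95% interval from limma (points and bars) and the value after centring each array on its median (open diamonds). Pttg1 at 0.40 is the 1 gene that passed the test, and Cenpi at 0.96 has the widest interval.

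Both Suz12KO arrays lay above both WT arrays for 22 of the 44 genes (29.0% of all genes tested) and below them for 6 (23.9% of all genes tested). The remaining 16 overlapped. The 6 were Plk4, Cdc25b, Bub3, Mad2l1, Ndc80 and Kif20a, spread over several roles. These counts use values before centring, and the 22 share the direction of the gap between array medians. The signals of the 44 genes summed to 123427 and 124090 in WT against 136830 and 140226 in Suz12KO.

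The other probe sets of these genes were counted as well. The 44 genes had 102 probe sets, of which 80 lay above the highest unused spike in every array. Apart from the brightest, 37 probe sets of 24 genes lay above it, with 23 values above 0 and 14 below, a median of 0.12 and a range of -0.75 to 0.54. In 11 of the 24 genes at least 1 such set had the opposite sign to the brightest. With the test run over all probe sets, 2 of the 91 tested for these genes were called higher and 0 lower, where 2.82% of all probe sets tested were called higher. They were the brightest set of Pttg1 (adjusted p = 0.0124) and the second set of Bub1b, at 2149 and 1704 in WT against 2608 and 2955 in Suz12KO (log2 fold change 0.53, adjusted p = 0.0441).

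**Figure D4:**
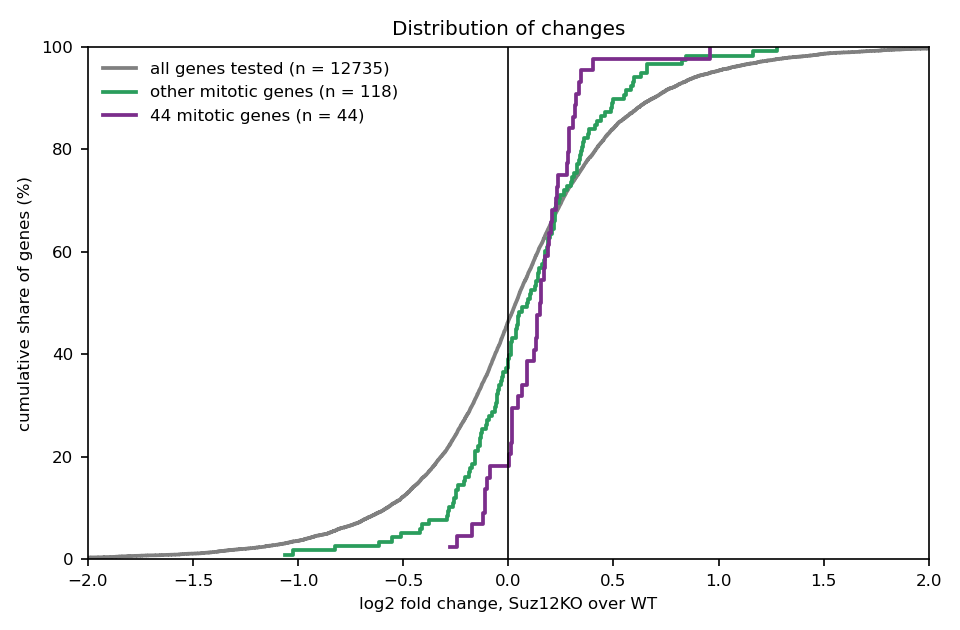
Cumulative share of genes (%) against log2 fold change, Suz12KO over WT, for the 44 genes, 118 other mitotic genes and all genes tested (12735). The curve of the 44 genes is the steepest, with a median size of change of 0.17 against 0.28 for all genes tested, and no value of 1 or more in size.

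The promoter motifs were set beside the changes. Genes with TTTGAA in a window had a median log2 fold change of 0.16 (24 genes, centred -0.0051) and genes with a window but without it 0.14 (13 genes, centred -0.030). The 7 genes with no window had a median of 0.018 (centred -0.15). Of the 9 genes printed with both motifs, only Bub3 had a value below 0 (-0.12), and the others ran from 0.089 (Espl1) to 0.32 (Kif11). After centring, Espl1, Cenpn and Top2a lay below 0 as well. A relation between motifs and change was not tested.

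A wider list of 123 mitotic genes outside the 44 was read for comparison, of which 118 were tested. Of these, 12 rose and 6 fell, against 4.48% and 5.50% of all genes tested, and the median log2 fold change was 0.091 (centred -0.077). After centring the counts were 5 higher and 10 lower, against 2.31% and 9.76% of all genes tested. The shares of 4.48% and 5.50% also apply to the counts of each list below. Without WT replicate 1, WT replicate 2, Suz12KO replicate 1 or Suz12KO replicate 2, the fits called 5 to 8 higher and 1 to 8 lower. When probe sets were averaged per gene, 13 of the 18 calls ended, and those of Ccnb2, Mybl2, Cenpm, Kntc1 and Sgo2a did not. All 18 calls ended when limma's mean-variance trend was left out, a setting under which limma called 0 genes on the whole array (2332 had an unadjusted p under 0.05).

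Mybl2, which encodes B-Myb, the factor that joins MuvB to switch on G2 and M genes, rose most. It read 2379 and 2471 in WT against 5875 and 5928 in Suz12KO (log2 fold change 1.28, SE 0.078, adjusted p = 1.69e-05, centred 1.11), and its second probe set read 614 and 813 against 1427 and 1431. Ccnb2, a mitotic cyclin, read 2850 and 2647 in WT against 4063 and 4279 in Suz12KO (0.60, SE 0.086, adjusted p = 0.00213, centred 0.43). Both remained past the test after centring. Plk2, a Polo kinase of G1 and stress responses, fell from 5802 and 5706 to 2619 and 2884 (-1.06, SE 0.082, adjusted p = 6.1e-05, centred -1.23). Its call ended with the mean of its probe sets (-0.25, adjusted p = 0.681), of which the second is dim. Cks1b, a small Cdk-binding protein, read 16517 and 16905 in WT against 13898 and 14180 in Suz12KO (-0.25, adjusted p = 0.0156, centred -0.42). Its call ended when WT replicate 1, WT replicate 2 or Suz12KO replicate 1 was left out.

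Among 34 other kinetochore and centromere genes, 5 rose and 0 fell. Of all 118, 31 were higher and 10 lower at an unadjusted limma p under 0.05, against 11.9% and 11.4% of all genes tested. Cenpm, a subunit of the constitutive centromere network, rose from 632 and 690 to 1246 and 1155 (0.85, SE 0.16, adjusted p = 0.00959, centred 0.68). Kntc1, a subunit of the RZZ complex that recruits dynein, read 840 and 827 in WT against 1345 and 1306 in Suz12KO (0.66, adjusted p = 0.0177, centred 0.49 with adjusted p = 0.0606). Sgo2a, a shugoshin that protects centromeric cohesin, read 950 and 912 in WT against 1368 and 1372 in Suz12KO (0.55, adjusted p = 0.0334, centred 0.38 with adjusted p = 0.126). The calls of Kntc1 and Sgo2a ended after centring. Leaving out WT replicate 1, WT replicate 2 or Suz12KO replicate 1 also ended that of Kntc1, and leaving out any 1 array that of Sgo2a. Cenpw, a centromere histone-fold protein, and Cdca3, a cell division cycle associated protein, also rose (0.49 and 0.38) and are named because the count is small, after their values were seen. Both calls ended after centring, that of Cenpw without any 1 array and that of Cdca3 without WT replicate 2 or Suz12KO replicate 1.

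Of 29 other spindle and cytokinesis genes, 1 rose and 3 fell. Cep55, the abscission scaffold of the midbody, read 1090 and 896 in WT against 1983 and 1566 in Suz12KO (0.82, SE 0.16, adjusted p = 0.0109, centred 0.66), with no call without WT replicate 2 or Suz12KO replicate 1. Pcnt, the pericentrin scaffold of the centrosome, read 1583 and 1131 in WT against 609 and 691 in Suz12KO (-1.03, SE 0.19, adjusted p = 0.00928, centred -1.19), with no call without WT replicate 1. Its second probe set lay the other way, at 868 and 854 in WT against 1038 and 929 in Suz12KO (0.19). Clasp1, which steadies microtubule ends, read 1624 and 1596 in WT against 1068 and 1026 in Suz12KO (-0.61, adjusted p = 0.0142, centred -0.78), with no call without WT replicate 1 or WT replicate 2. Its further sets overlapped between genotypes (0.043 and -0.21), and with the mean of its probe sets the value was -0.17 (adjusted p = 0.785). Nek6, a kinase of spindle assembly, read 1249 and 943 in WT against 614 and 599 in Suz12KO (-0.82, adjusted p = 0.0243, centred -0.99), with no call without WT replicate 1.

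Of 16 cohesin, chromosome structure and related genes, 3 rose and 0 fell. Smc1a and Smc3 are the ATPase pair of cohesin. Smc1a read 2362 and 2500 in WT against 3214 and 3262 in Suz12KO (0.41, adjusted p = 0.0181, centred 0.24 with adjusted p = 0.17). Smc3 read 2368 and 2653 in WT against 3410 and 3681 in Suz12KO (0.50, adjusted p = 0.0106, centred 0.33 with adjusted p = 0.091). Mki67, the proliferation antigen that coats mitotic chromosomes, read 1817 and 1771 in WT against 2281 and 2395 in Suz12KO (0.38, adjusted p = 0.0454, centred 0.21). All 3 calls ended after centring, those of Smc1a and Mki67 also without any 1 array, and that of Smc3 without WT replicate 1.

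Of 15 other APC/C genes, 1 rose and 1 fell. Ube2s, which extends the chains that Ube2c begins, rose from 16462 and 15222 to 24162 and 23312 (0.58, SE 0.057, adjusted p = 0.000232, centred 0.42 with adjusted p = 0.00339). Its call ended with the mean of its probe sets (0.51, adjusted p = 0.188) and without probe sets of s, x or a suffix (0.43, adjusted p = 0.768). Cdc16, an APC/C subunit, read 2760 and 2471 in WT against 1665 and 2006 in Suz12KO (-0.51, adjusted p = 0.0273, centred -0.68). Its mean over probe sets was 0.415, in the other direction, and the call ended without WT replicate 1 or Suz12KO replicate 1.

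Suz12 itself, the gene removed in Suz12KO, read 1097 and 1094 in WT against 217 and 369 in Suz12KO (log2 fold change -1.89, SE 0.27, adjusted p = 0.00213, centred -2.06). Across the series, replicate arrays correlated at 0.948 in WT and 0.934 in Suz12KO over genes, and arrays of different genotype at 0.905 to 0.914. The Gapdh signal ratio, 3′ over 5′, was 0.807 and 0.756 in WT against 0.889 and 0.871 in Suz12KO. For Actb the same ratio differed less, at 1.146 and 1.157 in WT against 1.141 and 1.137 in Suz12KO.

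Markers of other cells differed between the genotypes beside these results. Beside the counts that follow, 4.48% of all genes tested rose and 5.50% fell, or 2.31% and 9.76% after centring. Of 21 fibroblast markers on the array, 15 were tested, 9 fell and 1 (Col6a2) rose. After centring 9 were called lower and 0 higher. The signals of the 21 summed to 72394 and 72036 in WT against 26149 and 26158 in Suz12KO. Much of these sums came from Acta2, given below, and Fn1 (12917 and 12108 in WT against 7213 and 6868 in Suz12KO). The sums are therefore no measure of the whole list. Of the 15 tested, 13 had values below 0 and 2 above. 6 of the 21, listed as Postn, Lum, Dcn, Fap, Pdgfrb and S100a4, were at or under the highest unused spike in every array. Col1a1, a fibrillar collagen, fell from 2859 and 2599 to 435 and 448, and Acta2, smooth muscle actin, from 33742 and 33855 to 6821 and 7422. All 10 ES cell markers rose, with a summed signal of 66771 and 66305 in WT against 121673 and 124629 in Suz12KO. After centring all 10 values stayed above 0 and 8 were called higher, the calls of Zfp42 and Tdgf1 having ended. Pou5f1 read 7418 and 7097 in WT against 11657 and 11832 in Suz12KO, and Nanog, with Pou5f1 a core pluripotency factor, 1932 and 2055 against 8061 and 8446. Of 7 endoderm markers tested, 1 rose (Lama1, a laminin chain, from 238 and 247 to 1417 and 1134) and 1 fell (Krt19, a keratin, from 3150 and 2457 to 493 and 762). The 10 on the array summed to 5347 and 4874 against 4282 and 4001, and the 9 without Krt19 to 2197 and 2417 against 3790 and 3239. Of 6 neural markers tested, 2 fell (Nes and Sox11) and 0 rose, and the 7 on the array summed to 5865 and 5552 against 2333 and 2658. The fall of this sum came mostly from Nes (2150 and 1674 in WT against 702 and 709 in Suz12KO) and Sox11 (2420 and 2319 against 457 and 502). The 4 other neural markers tested were not called. After centring, the endoderm and neural calls stayed. The part of these cell type differences in the values of the mitotic genes was not tested.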

How the data were processed

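Total RNA of WT and Suz12KO ES cells was measured on 4 Affymetrix arrays, grouped by genotype in the sample labels. The deposited values are probe set signals, an intensity on a linear scale that the authors had scaled to 1 trimmed mean per array (500 in each, tested on the values). The program that made the signals was not given in the sources used here. Of 45101 probe sets, 34945 had 1 gene symbol in the platform annotation, 932 several and 9160 none, and 64 were controls. Only those with 1 symbol were used. Each of 18193 genes was read from its brightest probe set. Those below the 30th percentile (signal 130) were dropped, and 12735 remained.

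Values were taken as log2(signal + 16) and compared with limma 3.58.1 in R 4.3.3 (lmFit, eBayes with trend, two-sided, Benjamini-Hochberg adjustment across the 12735 genes, threshold 0.05), with no further normalization. On simulated data with 200 changed genes of 12735, for Suz12KO against WT, this recovered 23% of 2-fold and 67% of 4-fold changes, with 6 false among 96 calls. The changed genes were drawn at random from all signal levels, and more genes were called in the data (570 higher, 700 lower). The rates are therefore not those of the 44, whose median SE was 0.11 against 0.24 for all genes tested. Promoters were searched in the RefSeq GRCm38.p6 table with Python 3.11.15, with exact binomial intervals. Other genes were named by rule: per list the 3 largest rises and falls past the test, Suz12 and a few cell type markers. The members and lists were chosen with earlier results of these data known. Alternatives were the pseudocount (1 or 64), centring, quantile normalization, the filter, the choice of probe sets, limma's trend left out, robust estimation, a replicate block and leaving out each array. The motif window within 50 bases of the start, the pair of motifs and the tested-gene background were added after seeing the data.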

Additional observations from a re-analysis of the deposited data

How the results depend on the processing

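Of the 44 genes, 1 was called higher, against 0 under centring, with the mean of probe sets, without probe sets of s, x or a suffix (35 of the genes tested) and without limma's trend, 4 under quantile normalization, 3 with the filter at the 50th percentile, 8 with the replicate block, and 1 to 3 with 1 array left out. The 3 came without WT replicate 2 (Cdc20, Pttg1, Birc5). With 0 called, 1, 7, 8 and 1 genes of the 44 were higher at an unadjusted limma p under 0.05. Over all genes tested the same counts were 734, 1316, 1259 and 1243, of 12735 genes or, without the suffixes, 11614. The count of lower genes went from 0 to 1 under centring, and their median from 0.15 to -0.015. The 118 other mitotic genes gave 12 higher calls, against 5 under centring and with the mean of probe sets, 0 without trend, 19 with the replicate block and 5 to 8 with 1 array left out. Their 6 lower calls became 10, 0 and 0 under the first 3 of these and 1 to 8 with 1 array left out. Their median of 0.091 was -0.077 under centring, 0.117 under quantile normalization, 0.051 with the filter at the 50th percentile and 0.097 to 0.114 with 1 array left out. Without trend, 15 of the others were higher and 5 lower at an unadjusted limma p under 0.05, and with the mean of probe sets 6 were lower. Over all 12735 genes tested, 1243 were higher and 1089 lower without trend, and 1097 were lower with the mean of probe sets.

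Signs that turned under centring were those of Aurkb (-0.15), Plk1 (-0.081), Cdc25c (-0.15), Bub1 (-0.030), Ttk (-0.012), Espl1 (-0.078), Cenpk (-0.12), Cenpn (-0.045), Kif23 (-0.017), Kif2c (-0.16), Nusap1 (-0.037), Top2a (-0.012), Ncapd2 (-0.15), Ncapg (-0.031), Smc2 (-0.15) and Smc4 (-0.10), where the subtraction of 0.17 is the cause by construction. With the mean of probe sets the turned values were Aurkb -0.13, Cenpe -0.22, Kif23 -0.097, Tpx2 0.058, Smc2 -0.43, Smc4 -0.0591 and Cdc16 0.415, and without the suffixes Kif22 -0.19. The cause was not tested. With 1 array left out, ranges that crossed 0 were Aurkb -0.054 to 0.090, Cdc25c -0.22 to 0.25, Espl1 -0.026 to 0.21, Cenpk -0.13 to 0.22, Cenpn -0.15 to 0.39, Nuf2 -0.43 to 0.089, Kif23 -0.060 to 0.36, Kif2c -0.090 to 0.10, Tpx2 -0.25 to 0.027, Ncapd2 -0.017 to 0.047, Smc2 -0.021 to 0.051 and Smc4 -0.0035 to 0.14. The pseudocounts, robust estimation and the fit over all probe sets left the counts within 1.5 times. With 2 arrays per genotype, the number of arrays limits what can be detected. Arrays of the same replicate number did not deviate together (correlation of their differences 0.015 over 12735 genes), so the replicate block (8 and 19 higher calls, 0 and 9 lower, with 7.98% and 8.50% of all genes called) is given once.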
